A study of Mus musculus with 3 samples.

Results

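Heat shock proteins are chaperones: they bind unfolded or aggregating proteins and help them to refold, or pass them on for degradation. HSP70 proteins work in a cycle in which J-domain proteins deliver the client and start ATP hydrolysis, and exchange factors release it. Many of their genes are switched on by heat shock factor 1 (HSF1), which binds the heat shock element, a row of inverted GAA units, when unfolded protein, heat, oxidants or heavy metals put cells under stress. The 10 genes described here are Hspa1a, Hspa1b, Hspa8, Hsp90aa1, Hspb1, Hsph1, Dnajb1, Bag3, Hspd1 and Hspe1. They were chosen by name, with earlier results of these data known, from the 43280 rows of each count table, and all 10 were found. All 10 also reached the expression floor, a mean over the libraries of at least 5 CPM, counts scaled to library size with TMM factors that correct for composition, as did 12114 genes in all. Hspa1a and Hspa1b were below 5 CPM in control and passed through the other libraries, so that passing already required a difference.

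RNA came from mouse skeletal mesenchyme at E15.5; the design text names it as calvarial, and the labels call the material primary cells. Each of 3 beta-catenin (Ctnnb1) genotypes had 1 library. The dTF-cKO library was fx/dm with Dermo1-Cre, a recombinase made in mesenchymal cells from the Twist2 locus; the labels do not define dm, which in mouse genetics names an allele that keeps adhesion and lacks transcriptional output. The cKO library was fx/fx with the same Cre, and control was fx/fx with no Cre in its label. No fx/dm library without Cre is among the samples, so effects of carrying dm and of recombining the floxed copy cannot be told apart. The libraries held 2905264 counts (dTF-cKO), 2678457 (cKO) and 3634819 (control). With 1 library per genotype there is no replicate check and no test of genotype. Each comparison is between libraries, and the 95% intervals cover counting error only.

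Tissue markers differed between the libraries. The 12 mesenchyme markers took 0.605% of counts in dTF-cKO, 1.27% in cKO and 1.39% in control, and none of them was at 0. Col3a1 and Vim weigh most in these sums, with 9275 and 6255 of 17583 counts in dTF-cKO. Gene by gene, 8 of the 12 were at least 2-fold lower in dTF-cKO than in control and 1 higher. Of all measured genes, 20.9% were lower and 19.5% higher. The median log2 difference of the 12 was -1.775 in dTF-cKO and -0.427 in cKO against control. The 15 osteoblast markers took 0.801%, 4.16% and 18.3% in dTF-cKO, cKO and control. The 18 epidermis markers took 1.47%, 3.16% and 0.0162%, with Dsg1a at 0 counts in control and no other marker at 0. Mitochondrially encoded genes took 0.688%, 1.12% and 0.903%. Ctnnb1, the targeted gene, stood at 442 CPM in dTF-cKO, 746 CPM in cKO and 1028 CPM in control; its counts cover the whole gene, so alleles were not separated. Xist and Y-linked transcripts also separated both Cre-carrying libraries from control. Xist had 2, 0 and 1233 counts in dTF-cKO, cKO and control, and 4 Y-linked genes summed to 444, 362 and 0. Control thus had a female pattern and both Cre-carrying libraries a male pattern. In comparisons with control, sex and genotype cannot be told apart. In such bulk RNA, fewer cells of a type and less RNA per cell cannot be told apart.

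The stretches below lie upstream of the members that stood furthest apart between the libraries, Hspa1a, Hspa1b and Hspb1, and upstream of Hspe1. RefSeq gives Hspd1 a pair of starts. The Hspe1 start faces away from the inner of these, and the Hspe1 stretch lies between them, within the annotated span of Hspd1. The outer Hspd1 start lies beyond the Hspe1 start and is read towards it, so the genes overlap there. All stretches are RefSeq sequences of GRCm38.p6, written 5′ to 3′ on the strand of the named gene. Capitals mark 2-unit heat shock elements, GAANNTTC or TTCNNGAA, each of which reads the same on both strands.
Hspa1a, chr17:34972187-34972306, minus strand: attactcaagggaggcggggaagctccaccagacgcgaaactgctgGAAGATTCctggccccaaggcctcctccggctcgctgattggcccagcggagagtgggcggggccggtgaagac
Hspa1b, chr17:34959269-34959388, minus strand: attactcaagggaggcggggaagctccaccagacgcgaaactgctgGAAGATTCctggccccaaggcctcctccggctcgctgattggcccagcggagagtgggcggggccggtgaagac
Hspb1, chr5:135887769-135887858, plus strand: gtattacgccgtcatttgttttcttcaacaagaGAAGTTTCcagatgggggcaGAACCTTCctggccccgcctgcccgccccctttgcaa
Hspe1, chr1:55088028-55088107, plus strand: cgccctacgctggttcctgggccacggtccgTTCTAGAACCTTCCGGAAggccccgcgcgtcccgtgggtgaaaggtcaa

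The printed stretches of Hspa1a and Hspa1b had 0 differences, and their 300-base promoters, which run from 250 bases before the start over the first 50 bases of the gene, differed at 4 bases. Both had 1 match to the 2-unit element, beginning 104 bases before the start. Hspb1 had 2 matches, beginning 117 and 97 bases before its start. In the Hspe1 stretch, which is also upstream of the inner Hspd1 start, 3 overlapping matches formed 2 overlapping 3-unit elements, GAANNTTCNNGAA or its reverse complement TTCNNGAANNTTC. Promoters of 8 of the 10 members were matched by symbol; those of Hspa8 and Hsp90aa1 were not used here. The 2-unit element was in a promoter of 7 of the 8, against 17% of 27025 genes searched in the same way. The 7 include the nearly identical promoters of Hspa1a and Hspa1b and the stretch shared by Hspd1 and Hspe1, so they are not 7 separate sequences. The 3-unit element was in a promoter of 3 of the 8 (Hsph1, Hspd1 and Hspe1, of which the last pair share it; the promoter of the outer Hspd1 start had no match), against 0.662% of genes. Dnajb1, of the inducible HSP40 class, had no match in the windows searched, and the matches of Bag3 and the 3-unit match of Hsph1 lay after the start. These matches describe letters in a window and are not measured binding sites.

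Expression differed most in the dTF-cKO library. In it 7 of the 10 genes were at least 2-fold higher than in control, beside 19.5% of all measured genes, and 0 were at least 2-fold lower, beside 20.9%. Their median log2 difference was 1.69, beside 0.055 for all measured genes. In cKO 3 of the 10 were at least 2-fold higher than in control, beside 9.67% of genes, and 0 lower, beside 6.79%, with a median log2 difference of 0.32 beside 0.056. Between the Cre-carrying libraries, 7 of the 10 were at least 2-fold higher in dTF-cKO than in cKO, beside 14.5% of genes, and 0 lower, beside 20.6%, with a median of 1.32 beside 0.008. Hspa1a and Hspa1b are in each of these counts of higher genes. In control both were below the floor, and their coding sequences are nearly identical, so they are not 2 separate results. Summed, the pair stood at 7.56 CPM in control. With the pair as 1 gene, 6 of 9 were higher in dTF-cKO than in control. The same count was 2 of 9 for cKO against control and 6 of 9 for dTF-cKO against cKO. These comparisons share libraries, and the genes were chosen with such results known, so the counts are a description.

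**Figure D1:**
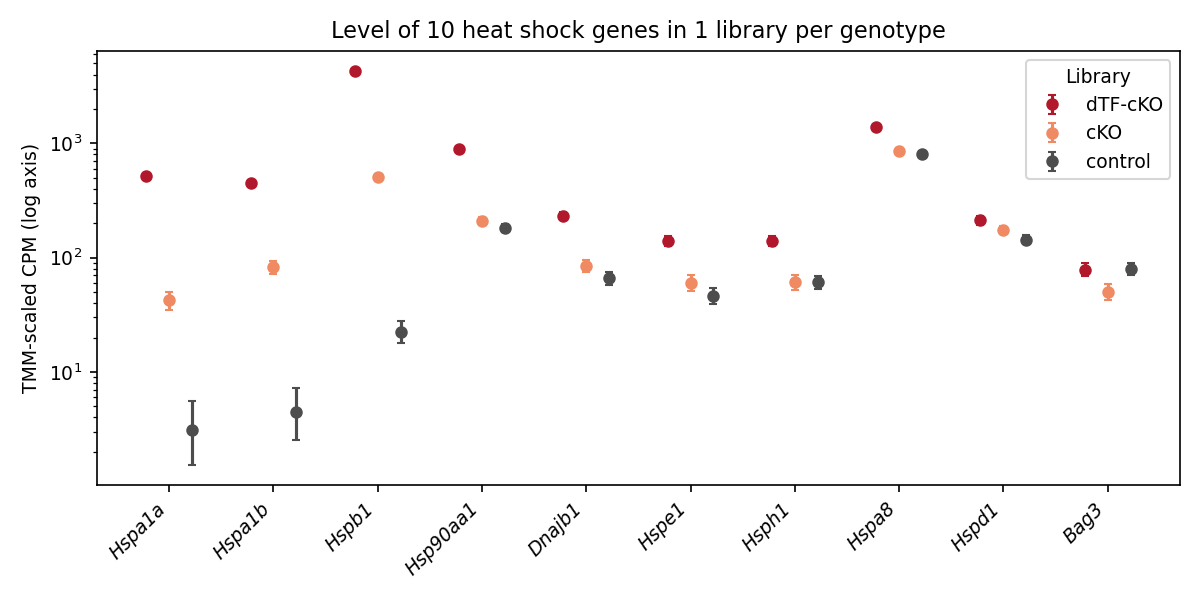
TMM-scaled CPM on a log axis for each of the 10 genes in dTF-cKO, cKO and control libraries; points are single libraries and bars are exact 95% Poisson intervals for counting error only. Hspa1a, Hspa1b and Hspb1 spread over the widest range, with 517.9, 450.2 and 4265 CPM in dTF-cKO and 3.08, 4.48 and 22.4 CPM in control, while Bag3 lay between 50.3 and 79.6 CPM.

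The inducible HSP70 genes were abundant in dTF-cKO and low in control. Hspa1a had 1447 counts in dTF-cKO, 119 in cKO and 11 in control, or 517.9, 42.2 and 3.08 CPM. Hspa1b had 1258, 233 and 16 counts in the same order, or 450.2, 82.6 and 4.48 CPM. Both genes were highest in dTF-cKO, intermediate in cKO and lowest in control, with counting intervals that did not overlap. They lie near each other on chromosome 17 (mm10, minus strand), each a single exon: Hspa1a from 34969190 to 34972156 and Hspa1b from 34956436 to 34959238. Their coding sequences were 99.6% identical, with 8 differing bases, and 47.1% of the 100-base stretches of the Hspa1a transcript also occur in Hspa1b. How reads were divided between them depends on the counting, which is not given in the sources used here, so the pair is best read as a sum. The summed counts were 2705, 352 and 27, or 968.1, 124.8 and 7.56 CPM. The sum was 128-fold higher in dTF-cKO than in control (87.8 to 195), 7.76-fold higher in dTF-cKO than in cKO (6.94 to 8.70), and 16.5-fold higher in cKO than in control (11.1 to 25.4). Hspa1a made up 53.5% of the pair in dTF-cKO (51.6% to 55.4%), 33.8% in cKO (28.9% to 39.01%) and 40.7% in control (22.4% to 61.2%), so its share was above that of cKO in dTF-cKO, while control was too shallow to place between them.

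Hspa8, which encodes HSC70, the HSP70 that cells make at all times, differed far less. It had 3910 counts in dTF-cKO, 2398 in cKO and 2852 in control, or 1399, 849.9 and 798.9 CPM. It was 1.75-fold higher in dTF-cKO than in control (1.67 to 1.84), 1.65-fold higher in dTF-cKO than in cKO (1.56 to 1.73) and 1.06-fold higher in cKO than in control (1.007 to 1.12), and the last of these was below 1 when the libraries were instead aligned on 54 stromal and vascular genes. None of these reached 2-fold. Per kilobase of exon, the level of Hspa1a and Hspa1b together was 335, 43.7 and 2.64 CPM in dTF-cKO, cKO and control, against 325, 197.6 and 185.8 CPM for Hspa8. The inducible pair stood at 103% of the Hspa8 level in dTF-cKO, 22.1% in cKO and 1.42% in control. These shares depend on the length taken for Hspa8, which is 4301 bases as the union of its exons and 2394 bases as its longest coding transcript; with the second they were 57.3%, 12.3% and 0.790%.

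Hspb1, a small heat shock protein that holds unfolded clients without using ATP and is also abundant in epidermis and muscle, had the widest spread of the 10. It had 11917 counts in dTF-cKO, 1437 in cKO and 80 in control, or 4265, 509 and 22.4 CPM. It was 190-fold higher in dTF-cKO than in control (153 to 240), 8.37-fold higher in dTF-cKO than in cKO (7.93 to 8.85), and 22.7-fold higher in cKO than in control (18.1 to 28.8). It was the gene with the 10th highest count in the dTF-cKO library, the 182nd in cKO and the 7010th in control. Hspb1 alone held 51.3% of the counts of the 10 genes in dTF-cKO, 24% in cKO and 1.59% in control. The gene lies on the plus strand of chromosome 5, spanning 135887919 to 135889563, and its exons merge into 2 blocks over all annotated transcripts.

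Epidermis markers moved with Hspb1 between the Cre-carrying libraries and control, but not in the same order. The summed level of the 18 epidermis markers was 15290 CPM in dTF-cKO, 29960 CPM in cKO and 165 CPM in control, so it was highest in cKO, where Hspb1 was intermediate. Within the list, Krt5, a keratin of the basal layer, had 4532, 2041 and 24.1 CPM in dTF-cKO, cKO and control, while Krt10, of the upper layers, had 322.5, 6960 and 5.88 CPM. Between dTF-cKO and cKO, 4 of the 18 markers were at least 2-fold higher and 7 at least 2-fold lower. Muscle, another tissue rich in Hspb1, went the other way: the 20 skeletal muscle markers summed to 20.8 CPM in dTF-cKO, with 4 at 0, against 415 CPM in cKO and 2516 CPM in control, with 0 at 0 in either. The part of epidermal RNA in the Hspb1 counts was not tested.

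Hsp90aa1, the inducible cytosolic HSP90, was more than 2-fold higher in dTF-cKO and not in cKO. It had 2470 counts in dTF-cKO, 594 in cKO and 645 in control, or 884, 210.5 and 180.7 CPM. It was 4.89-fold higher in dTF-cKO than in control (4.48 to 5.34), 4.199-fold higher in dTF-cKO than in cKO (3.838 to 4.60) and 1.17-fold higher in cKO than in control (1.04 to 1.30). Its constitutive partner Hsp90ab1 had 11334, 5860 and 7285 counts in dTF-cKO, cKO and control and was 1.99-fold higher in dTF-cKO than in control (1.93 to 2.05). Per kilobase, Hsp90aa1 stood at 16.6% of the Hsp90ab1 level in dTF-cKO, 7.73% in cKO and 6.75% in control.

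The co-chaperones of HSP70 did not all differ alike. Dnajb1, the J-domain partner that delivers clients to HSP70, had 646 counts in dTF-cKO, 239 in cKO and 235 in control, or 231, 84.7 and 65.8 CPM. It was 3.51-fold higher in dTF-cKO than in control (3.02 to 4.09), 2.73-fold higher in dTF-cKO than in cKO (2.35 to 3.18) and 1.29-fold higher in cKO than in control (1.07 to 1.55). Hsph1, the HSP110 exchange factor, had 390, 171 and 218 counts, or 139.6, 60.6 and 61.1 CPM. It was 2.29-fold higher in dTF-cKO than in control (1.93 to 2.71), whereas cKO and control were indistinguishable within counting error (ratio 0.992, 0.808 to 1.22). The difference of Hsph1 between dTF-cKO and control was below 2-fold when libraries were scaled without their most abundant genes, at a log2 value of 0.82.

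Bag3, an exchange factor that couples HSP70 to the small heat shock proteins and to autophagy, was the exception in dTF-cKO. It had 220 counts in dTF-cKO, 142 in cKO and 284 in control, or 78.7, 50.3 and 79.6 CPM. The dTF-cKO and control were indistinguishable within counting error (ratio 0.990, 0.826 to 1.18), and the sign of that difference changed with the scaling. In cKO Bag3 was 1.58-fold lower than in control (1.29 to 1.95), the only one of the 10 whose interval lay below 1 there with the rows as deposited. Hspb8, the small heat shock protein that binds BAG3, had 468, 85 and 77 counts in dTF-cKO, cKO and control and was 7.76-fold higher in dTF-cKO than in control (6.09 to 10.01).

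Hspd1 and Hspe1 encode HSP60 and HSP10, the ring and the lid of the mitochondrial chaperonin, and are read in opposite directions from neighbouring starts on chromosome 1, with Hspd1 from 55077835 to 55088243 on the minus strand and Hspe1 from 55088132 to 55091307 on the plus strand. Hspe1 had 388 counts in dTF-cKO, 170 in cKO and 165 in control, or 138.9, 60.2 and 46.2 CPM. Hspd1 had 591, 493 and 512 counts, or 211.5, 174.7 and 143 CPM. Hspe1 was 3.004-fold higher in dTF-cKO than in control (2.50 to 3.63), whereas Hspd1 was 1.48-fold higher (1.31 to 1.66), and the intervals of both ratios did not overlap. The Hspd1 level per kilobase was 0.850 times that of Hspe1 in dTF-cKO, 1.62 times in cKO and 1.73 times in control, or 0.487, 0.926 and 0.991 times with the length of the longest coding transcripts. In cKO, Hspe1 was 1.30-fold (1.05 to 1.62) and Hspd1 1.22-fold higher than in control (1.07 to 1.38).

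**Figure D2:**
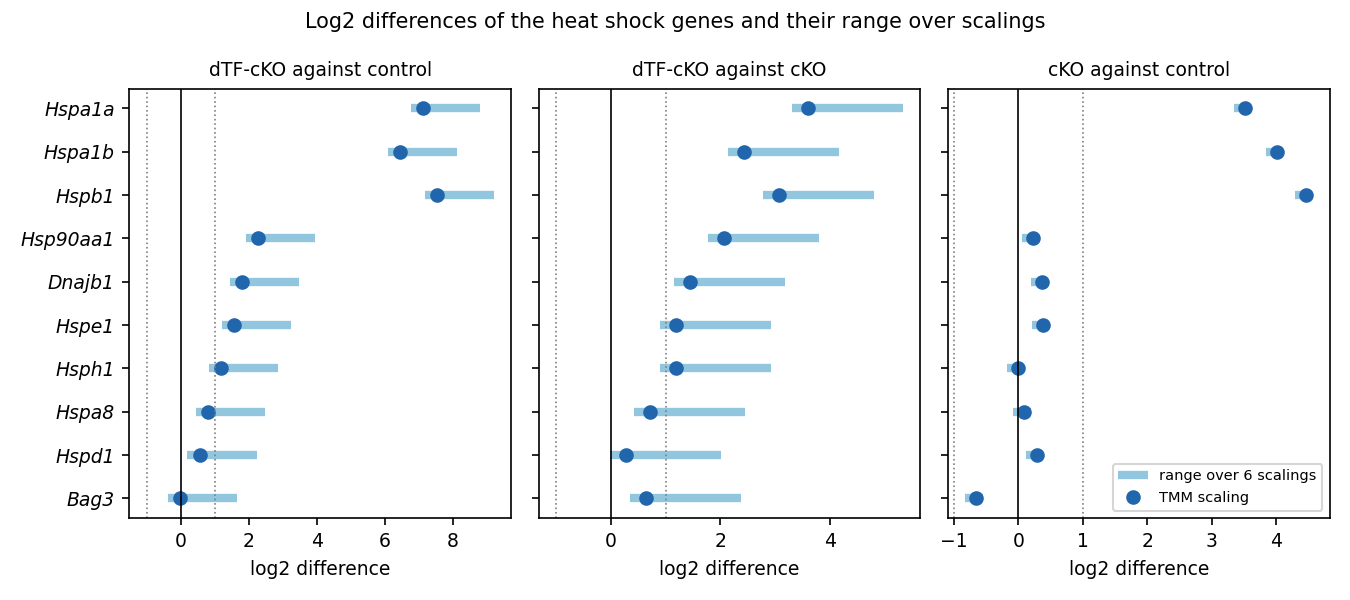
Log2 differences of the 10 genes in the 3 comparisons, the first-named library minus the second; dots are TMM scaling, bars span 6 scalings and dotted lines mark 2-fold. Hspb1, Hspa1a and Hspa1b lie at 7.53, 7.12 and 6.46 for dTF-cKO against control, while Bag3 crosses 0 at -0.015.

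The order of the genes by level per kilobase also differed between libraries. In control the highest was Hspa8 at 185.8 CPM per kilobase and the lowest Hspa1b and Hspa1a at 1.60 and 1.04, which overlapped within counting error, as did Hspe1 with Bag3 and Hspb1 with Dnajb1. In cKO the highest was Hspb1 at 494, followed by Hspa8, while Hspa1b at 29.5 overlapped with Dnajb1 and Bag3 at 19.6 with Hspa1a. In dTF-cKO the order from the top was Hspb1 at 4137, Hspa8 at 325, Hsp90aa1 at 225, then Hspa1a and Hspa1b, which overlapped at 174.5 and 160.6. Hspe1, Hspd1 and Dnajb1 followed, each overlapping with its neighbour. Hsph1 stood at the low end of both Cre-carrying libraries, at 19.2 in dTF-cKO and 8.34 in cKO. With the longest coding transcript as the length, Hsph1 stood at 36.7 and 15.9 and the lowest were Bag3 at 30.7 in dTF-cKO and Hspa1a at 14.2 in cKO. Hspe1 then stood higher in the order, at 179.4 in dTF-cKO, 77.8 in cKO and 59.7 in control, while the first places, of Hspa8 in control and Hspb1 in both Cre-carrying libraries, were the same with either length.

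Together the 10 genes held 0.800% of the counts of the dTF-cKO library (exact 95% interval 0.790% to 0.810%), 0.224% of cKO (0.218% to 0.230%) and 0.138% of control (0.134% to 0.142%). Their summed level was 5.92-fold higher in dTF-cKO than in control (5.74 to 6.10), 3.91-fold higher in dTF-cKO than in cKO (3.80 to 4.03) and 1.51-fold higher in cKO than in control (1.46 to 1.57). Without Hspb1 the same sums were 2.93-fold (2.83 to 3.03), 2.51-fold (2.42 to 2.60) and 1.17-fold higher (1.12 to 1.22), so most of the difference in cKO lay in Hspb1.

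**Figure D3:**
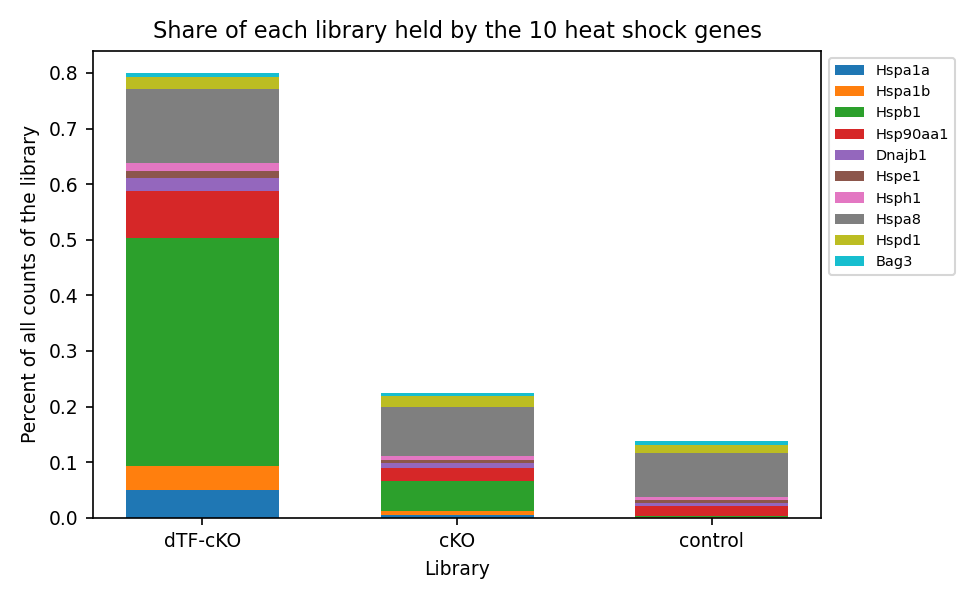
Percent of all counts of dTF-cKO, cKO and control libraries held by each of the 10 genes, stacked, with 1 bar per library and the axis from 0. The bars reach 0.800%, 0.224% and 0.138%, and Hspb1 is the largest segment in dTF-cKO, while Hspa8 is the largest in cKO and control.

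Some members have sequence copies elsewhere in the genome, and rows of such copies held counts; whether these reads came from the members was not tested. Of the 100-base stretches of each transcript, 62.8% for Hspa8, 47.5% for Hsp90aa1, 42.7% for Hspb1, 26.9% for Hspd1 and 20.4% for Hspe1 also occur in another annotated gene, against 0% for Hsph1, Dnajb1 and Bag3. Counts for the copies of Hspd1 and Hspe1 were not used here. Hsp25-ps1, a pseudogene of Hspb1, had 1085 counts in dTF-cKO, 100 in cKO and 10 in control, in the same order as Hspb1. Adding it left Hspb1 at 185-fold higher in dTF-cKO than in control (150 to 230). The 4 pseudogene rows of Hspa8 summed to 514 counts in dTF-cKO, 225 in cKO and 1068 in control, which was 11.6%, 8.58% and 27.2% of the gene and its copies. With them added, Hspa8 was 1.44-fold higher in dTF-cKO than in control (1.38 to 1.51), and the ratio of cKO to control was 0.847 (0.805 to 0.890). For Hsp90aa1, whose 3 pseudogene rows had 355, 46 and 216 counts in dTF-cKO, cKO and control, the ratio of dTF-cKO to control became 4.19 (3.88 to 4.53) and that of cKO to control 0.940 (0.848 to 1.04). The small cKO differences of Hspa8 and Hsp90aa1 therefore have no fixed direction.

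Other chaperones and stress genes, in 10 lists, differed mainly in dTF-cKO as well. Of 116 measured genes in those lists, 34 were at least 2-fold higher in dTF-cKO than in control and 10 lower, or 29.3% and 8.62%, beside 19.5% and 20.9% of all genes, with a median log2 difference of 0.60. In cKO, 5 were higher and 3 lower than in control, or 4.31% and 2.59%, beside 9.67% and 6.79% of all genes, with a median of 0.042, which was below 0 under 2 of 6 scalings. Between dTF-cKO and cKO, 28 were higher and 8 lower, or 24.1% and 6.90%, beside 14.5% and 20.6% of all genes, with a median of 0.67 beside 0.008. Of the 116, 6 had a library below 5 CPM (Hspa12a, Hspa12b, Hspb6, Hspb7, Atf3 and Chac1), so that passing the floor itself favoured a difference.

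Among cytosolic partners, 3 of 9 other genes of the HSP70 and HSP110 list were at least 2-fold higher in dTF-cKO than in control and 2 lower, beside 19.5% and 20.9% of all genes, so the share lower was near that of all genes. Hspa4 and Hspa4l, HSP110 relatives of Hsph1, were 2.15-fold (1.91 to 2.41) and 3.48-fold higher (2.35 to 5.25). The remaining higher gene was Fam96b, which is not a chaperone and was listed in error, at 2.77-fold (2.02 to 3.82). Hspa12b, an HSP70 relative found mainly in endothelium, had 6 counts in dTF-cKO, 165 in cKO and 204 in control and was 26.6-fold lower in dTF-cKO than in control (12.02 to 73.4). The 12 endothelium markers were also lowest in dTF-cKO, at 248, 1376 and 966.5 CPM in dTF-cKO, cKO and control with none at 0. Their sum was higher in cKO than in control, while Hspa12b stood at 58.48 CPM in cKO and 57.15 CPM in control. The part of endothelium in the Hspa12b difference was not tested. Hspa12a was also lower in dTF-cKO, with 9, 44 and 42 counts. Of 17 J-domain genes 3 were higher in dTF-cKO than in control and 2 lower, neither share above the 19.5% and 20.9% of all genes, and the higher ones were Dnajb4 at 3.34-fold (2.41 to 4.69), Dnajb2 at 3.21-fold (2.46 to 4.23) and Dnajb6 at 2.95-fold (2.21 to 3.98). Dnajc5, the most abundant of that list, was 1.43-fold higher (1.26 to 1.63). Of 17 genes of HSP90 and its co-chaperones, 2 were higher and 1 lower, again shares below those of all genes; Ptges3, the p23 co-chaperone, was 2.28-fold higher (1.89 to 2.75) and Ahsa2, a relative of the HSP90 activator Ahsa1, 2.18-fold lower.

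In cKO, Fkbp5, an HSP90-bound immunophilin induced by glucocorticoids, was 2.21-fold higher than in control (1.90 to 2.59). It had 262 counts in dTF-cKO, 457 in cKO and 261 in control, so cKO was highest. It was the only one of the 17 HSP90 genes at least 2-fold different there, and 0 of the 9 HSP70 and 17 J-domain genes were. The all-gene shares for cKO against control were 9.67% higher and 6.79% lower by the same rule. Lists this short cannot be told apart from those shares.

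Of the other small heat shock proteins only 4 of 8 were measured. Hspb7, a gene of heart and skeletal muscle, had 2 counts in dTF-cKO, 7 in cKO and 50 in control, a ratio of 0.0511 for dTF-cKO to control (0.00602 to 0.195), in the same direction as the muscle markers given above, whose part was not tested. Hspb8 is described beside Bag3. Of 5 other BAG genes 0 were at least 2-fold different in any comparison. Of all genes, 6.79% to 20.9% were so in each direction and comparison, and 5 genes are too few to set against these shares. Bag6, the most abundant BAG gene, was 1.61-fold higher in dTF-cKO than in control (1.48 to 1.74).

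Among organelle chaperones, of 15 mitochondrial chaperones and proteases, 7 were at least 2-fold higher in dTF-cKO than in control and 1 lower, beside 19.5% and 20.9% of all genes. The higher ones included Hspa9, the mitochondrial HSP70, at 2.93-fold (2.65 to 3.24), its exchange factor Grpel2 at 3.30-fold (2.51 to 4.37) and the J-protein Hscb at 2.78-fold (1.66 to 4.77). Of 18 endoplasmic reticulum chaperones 4 were higher and 2 lower, a share higher that is near the 19.5% of all genes. Hspa5, the HSP70 of that compartment, known as BiP, had 8126 counts in dTF-cKO, 1449 in cKO and 2272 in control and was 4.57-fold higher in dTF-cKO than in control (4.36 to 4.79). Hyou1, its exchange factor, was 2.96-fold higher (2.69 to 3.27), while Hspa13, another HSP70 of the compartment, was 3.03-fold lower. Serpinh1, or HSP47, the chaperone of procollagen, had 4768, 5022 and 15333 counts in dTF-cKO, cKO and control and was 2.52-fold lower in dTF-cKO and 2.41-fold lower in cKO than in control. It was the lower member of that list in cKO, where 0 of 18 were higher, beside 6.79% and 9.67% of all genes. Osteoblast markers, which include type I collagen, were lower in the same libraries, at 8323, 39470 and 186200 CPM with 2, 1 and 0 of 15 at 0 (for Serpinh1 their part was not tested).

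Of 14 genes of the cytosolic chaperonin TRiC and of prefoldin, which feeds it new actin and tubulin, 6 were at least 2-fold higher in dTF-cKO than in control and 0 lower, beside 19.5% and 20.9% of all genes. Pfdn1 was 3.70-fold (3.04 to 4.53), Pfdn4 3.10-fold (2.04 to 4.80), Pfdn5 2.52-fold (2.21 to 2.88) and the TRiC subunit Cct5 2.05-fold higher (1.88 to 2.24). In cKO 0 of the 14 were at least 2-fold different from control, beside 9.67% of all genes higher and 6.79% lower.

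**Figure D4:**
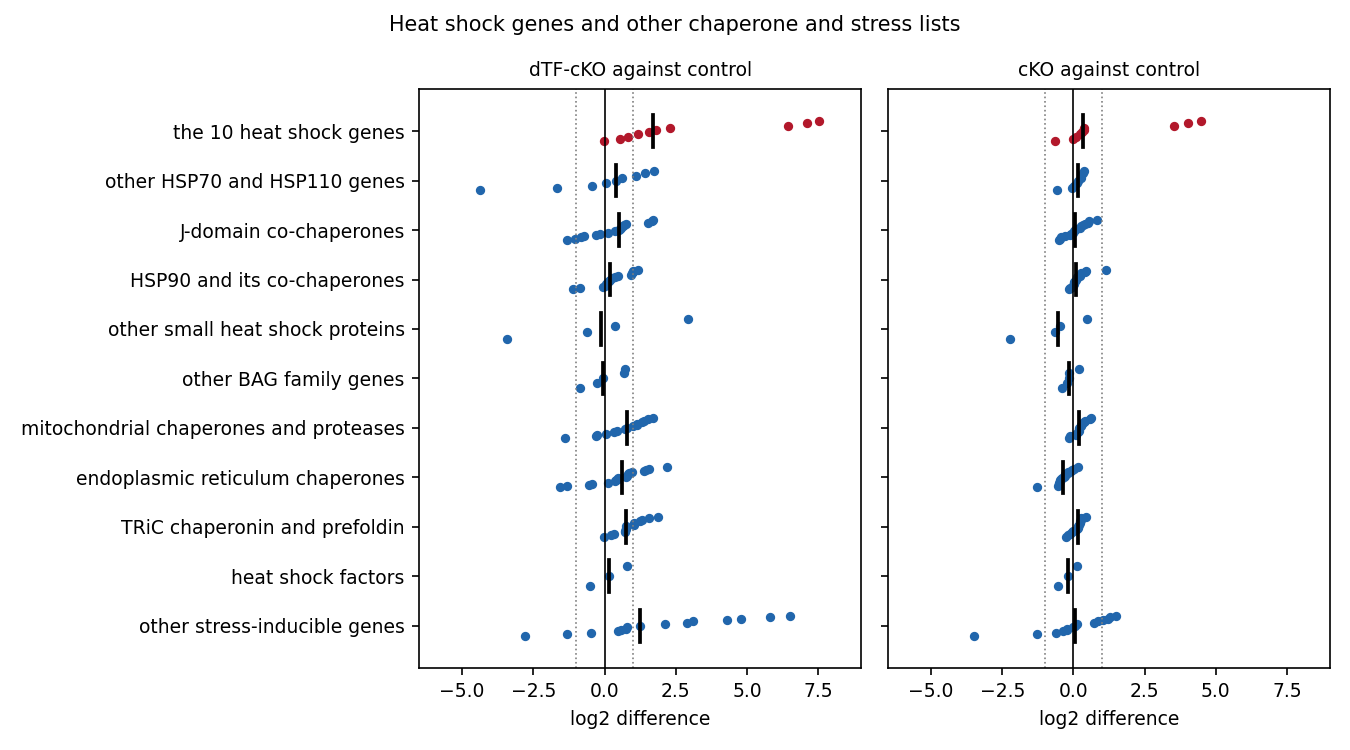
Log2 differences of measured genes, 1 point per gene, in the 10 heat shock genes (red) and 10 other chaperone and stress lists (blue), for dTF-cKO against control and cKO against control; black bars are list medians and dotted lines mark 2-fold. The medians of the 10 heat shock genes are 1.69 and 0.32, and that of the other stress-inducible genes is 1.25 for dTF-cKO.

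The measured genes of the heat shock factor list differed by less than 2-fold. Hsf1, looked up after its values were seen, had 151 counts in dTF-cKO, 95 in cKO and 174 in control. Its level in dTF-cKO was 1.11 times that of control (0.886 to 1.39), and in cKO 0.691 times (0.532 to 0.892). Of the 3 measured genes of that list 0 were at least 2-fold different in any comparison. Of all genes, 6.79% to 20.9% were so in each direction and comparison, and 3 genes are too few to set against these shares. Hsbp1, an HSF1-binding protein and the most abundant, was 1.73-fold higher in dTF-cKO than in control (1.489 to 1.999). HSF1 is controlled mainly through its protein, which was not measured here.

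Genes that respond to other stresses stood further apart. Of 15, 8 were at least 2-fold higher in dTF-cKO than in control and 2 lower, beside 19.5% and 20.9% of all genes, against 4 higher and 2 lower in cKO, beside 9.67% and 6.79%. Serpinh1, which also stands in the list above, was among the lower genes. So was Chac1, a glutathione-degrading enzyme named after its values were seen, which passed the floor through its control level alone, with 6 counts in dTF-cKO, 3 in cKO and 67 in control. The metallothioneins Mt1 and Mt2, which bind zinc and other metals, had 2170 and 1930 counts in dTF-cKO, 93 and 37 in cKO and 47 and 25 in control. They were 59-fold (44.2 to 80.5) and 98.6-fold higher in dTF-cKO than in control (66.6 to 153). Hmox1, the heme oxygenase induced by oxidants and heme, had 2043, 208 and 93 counts and was 28.1-fold higher in dTF-cKO (22.8 to 34.9) and 2.83-fold higher in cKO than in control (2.21 to 3.65). Atf3 and Ddit3, factors of the stress response named after their values were seen, had 251 and 268 counts in dTF-cKO, 11 and 36 in cKO and 14 and 44 in control. Their counts were close to those of control in the cKO library, in which Hspa1a, Hspa1b and Hspb1 were higher. The 10 erythroid markers, a source of heme, stood at 16010 CPM in dTF-cKO, 5470 in cKO and 6560 in control, with 0, 1 and 1 of them at 0, and the part of blood in Hmox1 was not tested.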

How the data were processed

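PolyA RNA was sequenced from 1 library per genotype, with Ion Total RNA-Seq kit chemistry per the labels' protocols. The deposited values are raw counts per gene; the build, per the submitters' processing notes, was mm10. Aligner, counter, annotation and strandedness: not given in the sources used here. The 27 rows whose symbols had become dates held no more than 0.180% of any library and were left out.

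Counts were scaled with TMM factors (0.963 for dTF-cKO, 1.05 for cKO and 0.984 for control) in edgeR 4.0.16 under R 4.3.3. Log2 values used a prior count of 2, and genes were called higher or lower at a log2 difference of 1 in size. Ratios are of scaled counts, with an exact conditional (Clopper-Pearson) 95% interval; levels and shares have exact Poisson and binomial intervals. PCR duplicates cannot be recognised without molecular identifiers, so these cover counting error only. A count of 0 allows up to 3 counts, or 1.07, 1.06 and 0.840 CPM in dTF-cKO, cKO and control. Per-kilobase levels used the union of exons in GENCODE vM21, and coordinates and shared 100-base stretches come from it. The calls and intervals were tested on simulated Poisson counts. These carry counting error only, as the intervals assume, so the test cannot speak to variation between replicate libraries. No p-value was computed.

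Alternatives were scaling to totals, DESeq2 1.42.0 size factors, totals that leave out the 20 most abundant genes per library, and TMM without the marker genes of epidermis, muscle, blood and bone. A stroma scaling set the median difference of 54 dermal, meningeal, vessel wall and endothelial genes to 0 in each comparison. Others were prior counts of 0.5 and 10, no floor and a floor of 20 CPM, size rules of 1.5-fold and 3-fold, 2-fold with an interval excluding 1, and Hspa1a and Hspa1b summed. Adding pseudogene counts, and per-kilobase levels with the longest coding transcript, were chosen after the data were seen. The members and lists were chosen with earlier results of these data known. Named genes were the 10 members, Ctnnb1, Twist2 and, from each list, the most abundant gene and up to 3 of the furthest at least 2-fold different. Of 289 listed symbols 288 were found, 3 of them by synonym. The HSP70 list holds Fam96b, an iron-sulphur assembly gene listed in error, which is also counted in the pooled lists. Twist2 had 35, 80 and 21 counts in dTF-cKO, cKO and control.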

Additional observations from a re-analysis of the deposited data

How the results depend on the processing

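No paired analysis was possible because each genotype has 1 library and nothing was tested. The number of the 10 genes at least 2-fold higher in dTF-cKO than in control was 7 under 9 of 14 alternatives and ranged from 5 (3-fold rule) to 10 (stroma scaling). Against cKO it ranged from 4 (3-fold rule) to 10 (stroma scaling), and was 5 without the 20 most abundant genes. In cKO it was 3, or 2 with Hspa1a and Hspa1b summed. None was lower in any comparison, except Bag3 in cKO under the 1.5-fold rule (1 gene). The stroma scaling moved the median of all genes by 1.68 in dTF-cKO against control, 1.73 against cKO and -0.17 in cKO. It gave 8811 and 633 genes at least 2-fold higher and lower in dTF-cKO than in control, in place of 2362 and 2529, and 8896 and 536 against cKO, in place of 1759 and 2492. A scaling shifts all genes nearly alike, and the members' median stood 1.63, 1.31 and 0.27 above the all-gene median in these comparisons. Totals without the 20 most abundant genes moved the same medians by -0.35, -0.29 and -0.063. Gene by gene, 189 of the alternative values stayed within the counting interval, 51 moved outside it and 0 of the at least 2-fold ones changed sign. The smaller differences of Hspa8 and Hsph1 in cKO, of Bag3 in dTF-cKO against control and of Hspd1 between the Cre-carrying libraries changed sign with the scaling. Among the other lists, dTF-cKO medians of HSP90 genes (0.18) and heat shock factors (0.15) were -0.18 and -0.21 without the 20 most abundant genes, and those of small heat shock proteins (-0.13) and BAG genes (-0.048) were 1.55 and 1.63 under the stroma scaling. Depth limits control values of Hspa1a and Hspa1b, which rest on 11 and 16 counts. The all-gene counts of cKO against control were 1172 higher and 823 lower at 2-fold, 2147 and 2292 with no floor, 674 and 325 at 20 CPM, 2194 and 1602 at 1.5-fold and 692 and 382 at 3-fold. For dTF-cKO at 3-fold, 1254 genes were higher than in control and 712 higher than in cKO, each of 12114. Without the 20 most abundant genes these were 1643 and 1180 at 2-fold, each of 12736.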
